A study of Mus musculus with 20 samples.

Results

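The 10 genes studied here mark the brain vasculature and its barrier, and their transcripts were measured in the hippocampus of aged mice that carried human APOE in place of mouse Apoe. They were chosen by name from 33119 genes, and all 10 passed the filter on low counts that left 21724 genes for testing. They comprise the VEGF receptor genes Kdr and Flt1, the endothelial surface gene Pecam1, the tight junction genes Cldn5, Ocln and Tjp1, the transporter genes Slco1a4, Abcb1a and Mfsd2a, and the pericyte gene Pdgfrb. PolyA RNA was sequenced from the bulk hippocampus of 20 mice, with 5 males and 5 females of each of the genotypes hAPOE3 and hAPOE4, which makes 4 groups of 5. Every mouse was on the C57BL/6 background, 16 months old and homozygous for a targeted replacement with APOE3 or APOE4, so each group carried a human APOE allele and no group with mouse Apoe was analysed here. Vessels had been flushed with PBS by perfusion before dissection. The comparisons asked how APOE genotype and sex, alone and together, related to the transcript levels of these genes.

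The blood-brain barrier is formed by endothelial cells that are sealed by tight junctions, carry selective transporters and have little vesicular traffic. Pericytes embedded in the vascular basement membrane maintain this state, and signalling through VEGF receptors governs endothelial growth, survival and permeability. APOE is made in the brain mainly by astrocytes, whose endfeet cover these vessels, and APOE4 is the main common genetic risk factor for late-onset Alzheimer's disease.

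All members are protein-coding genes, with positions on the GRCm38 build. Kdr (ENSMUSG00000062960, chr5:75932827-75978458), Flt1 (ENSMUSG00000029648, chr5:147561604-147726011) and Abcb1a (ENSMUSG00000040584, chr5:8660077-8748575) lie on chromosome 5. Pecam1 (ENSMUSG00000020717) is at chr11:106654217-106750628, Cldn5 (ENSMUSG00000041378) at chr16:18776847-18778262, Ocln (ENSMUSG00000021638) at chr13:100496507-100552718, Slco1a4 (ENSMUSG00000030237) at chr6:141805440-141856199 and Mfsd2a (ENSMUSG00000028655) at chr4:122946850-122961188. Tjp1 (ENSMUSG00000030516, chr7:65296165-65527781) shares chromosome 7 with the replaced Apoe gene, at a distance of 45.6 Mb. In that annotation, 2 further gene models overlap Abcb1a and 3 overlap Tjp1, and whether the counting used strand was not given in the sources used here. Abcb1a and Slco1a4 also have the close paralogs Abcb1b and Slco1a5, so the split of their reads is uncertain.

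Promoter sequences from RefSeq were taken for 8 of the 10 members. The 250 bases upstream of the annotated start are shown for 4 of them, 1 for each way in which the members' data differed: Kdr, the gene that differed with genotype, Flt1, the related receptor gene, Slco1a4, the gene with the opposite sign, and Cldn5, the gene that varied most between mice. Sequences are from RefSeq on GRCm38.p6 and run 5′ to 3′ on the strand of the gene. Capitals mark matches to GGAA on either strand (TTCC where it lies on the other), the core letters bound by ETS factors, a family that includes regulators of endothelial genes.
Kdr (chr5:75978456-75978705, minus strand): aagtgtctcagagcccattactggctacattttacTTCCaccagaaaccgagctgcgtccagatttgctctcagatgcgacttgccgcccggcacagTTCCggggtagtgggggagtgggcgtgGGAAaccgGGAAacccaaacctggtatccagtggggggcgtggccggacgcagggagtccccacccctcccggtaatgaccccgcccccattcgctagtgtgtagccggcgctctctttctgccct
Flt1 (chr5:147726012-147726261, minus strand): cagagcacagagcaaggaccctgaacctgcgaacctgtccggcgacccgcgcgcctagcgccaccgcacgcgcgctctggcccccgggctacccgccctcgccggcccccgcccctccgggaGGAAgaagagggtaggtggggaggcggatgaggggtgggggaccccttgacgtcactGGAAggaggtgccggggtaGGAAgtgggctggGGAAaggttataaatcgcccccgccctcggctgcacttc
Slco1a4 (chr6:141856221-141856470, minus strand): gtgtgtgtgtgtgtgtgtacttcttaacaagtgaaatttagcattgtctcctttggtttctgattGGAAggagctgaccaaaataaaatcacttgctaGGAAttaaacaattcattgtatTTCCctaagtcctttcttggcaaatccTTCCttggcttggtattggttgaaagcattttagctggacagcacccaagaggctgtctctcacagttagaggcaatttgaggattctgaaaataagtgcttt
Cldn5 (chr16:18776597-18776846, plus strand): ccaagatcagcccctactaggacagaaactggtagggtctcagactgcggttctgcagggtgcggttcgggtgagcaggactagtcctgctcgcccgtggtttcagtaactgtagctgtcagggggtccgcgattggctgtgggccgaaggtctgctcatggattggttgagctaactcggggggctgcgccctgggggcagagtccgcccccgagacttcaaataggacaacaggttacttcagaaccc
The upstream windows of Kdr, Flt1 and Slco1a4 each held 4 GGAA matches and that of Cldn5 held 0. This short string is common, since 93.4% of 32851 RefSeq promoters of the same length held at least 1, with a median of 3. The longer AGGAAG, which contains GGAA and was held by 29.5% of promoters, matched 2 times in Flt1, 1 time in Slco1a4 and 0 times in Kdr and Cldn5. CTTTGA, the letters of TCF/LEF factors that act in Wnt signalling, matched in none of the 4 windows and in 13.8% of promoters. GGGCGG, bound by SP1 and held by 32.7% of promoters, matched 3 times in Flt1, 2 times in Kdr, 1 time in Cldn5 and 0 times in Slco1a4. TATAAA was found in the Flt1 window only, 1 time, against 12.4% of promoters. All motifs were searched on both strands. The windows of Flt1, Kdr and Cldn5 held 23, 16 and 12 CG dinucleotides and that of Slco1a4 held 0, where the median promoter held 6.

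Libraries held 35778879 to 52520279 estimated counts, and each member had between 351 and 6418 counts in every mouse. Counting error was therefore small beside the spread between mice, and levels are given as counts-per-million (CPM). Of the 10 hAPOE3 libraries, 5 stood apart from the rest, those of males 3, 4 and 5 and females 4 and 5. Their score for 34 nuclear genes of oxidative phosphorylation (mean centred log2 CPM) ran from 0.332 to 0.489, against -0.335 to -0.15 in the other 5 hAPOE3 libraries and -0.281 to 0.0701 in hAPOE4 mice. This set was drawn after the data were seen, and results that rest on it are given with and without it. The summed CPM of 24 other endothelial identity genes ran from 392 to 538 and that of 10 neuronal markers from 4690 to 7310. The summed CPM of 12 choroid plexus markers ran from 90.8 to 6700. That of 7 blood genes, of which 5 passed the filter, ran from 9.25 to 303. For 20 oocyte genes, of which 8 passed, the sum reached up to 216 CPM in hAPOE4 males. In each other group it was at most 3.69 CPM. All of these marker genes had counts in at least 1 mouse.

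**Figure D1:**
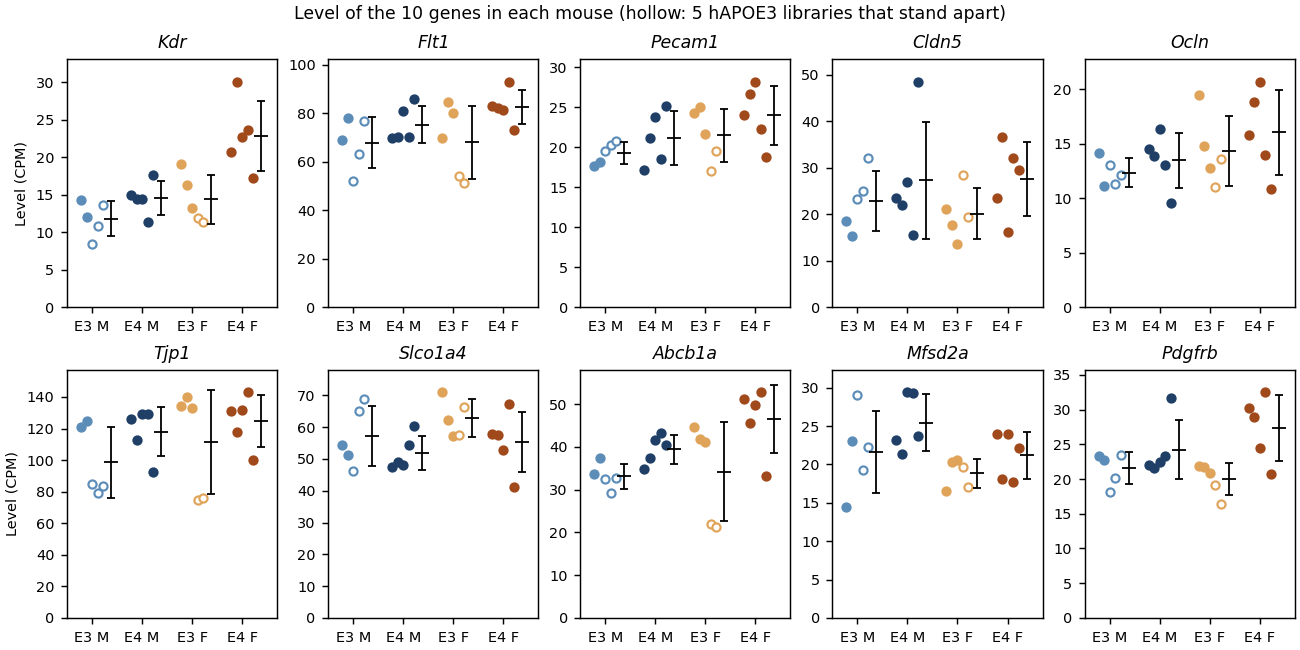
Level in CPM of each gene in each mouse, on axes that start at 0, with E3 and E4 for hAPOE3 and hAPOE4, M and F for males and females, and the mean ± SD of 5 mice beside each group. Hollow points are the 5 hAPOE3 libraries that stood apart. For Kdr 4 of 5 hAPOE4 females sit above all mice of the other groups, and the hollow points sit at 75 to 84.8 CPM for Tjp1.

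Per kilobase of the longest coding transcript, Cldn5, Tjp1 and Slco1a4 were the most abundant of the 10, at 17.3, 16.0 and 14.9 CPM per kb averaged over 20 mice. Flt1, Mfsd2a, Abcb1a and Pecam1 followed at 10.7, 10.1, 7.66 and 6.25 CPM per kb. Pdgfrb, Ocln and Kdr were lowest at 4.30, 3.48 and 2.68 CPM per kb, so the level of Flt1 per kilobase exceeded that of Kdr in this tissue. Transcripts of Tjp1 also come from cells outside vessels. The coding transcripts of Slco1a4 run from 622 to 3823 bases, so its level per kilobase depends on the transcript assumed. Between mice, Cldn5 and Kdr levels varied most, with coefficients of variation of 34.6% and 32.8% over 20 mice, and Slco1a4 and Pecam1 least, with 14.5% and 15.5%.

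Averaged over the sexes, 9 of the 10 genes had a positive log2 fold change in hAPOE4 against hAPOE3 mice and Slco1a4 a negative one. The median over the 10 was 0.21, beside 0.00164 over all 21724 genes, of which 50.3% were positive. Kdr was the 1 member past an adjusted p of 0.05 by edgeR with Benjamini-Hochberg adjustment, where 2.45% of all genes were past it. Kdr, Pdgfrb, Abcb1a and Flt1, 4 of the 10, had an unadjusted p under 0.05, against 17.9% of all genes. Without the 5 hAPOE3 libraries 8 of 10 members were positive, their median was 0.13, 0 passed the threshold, and Cldn5, Mfsd2a and Kdr had an unadjusted p under 0.05 beside 15.9% of all genes. In bulk tissue, fewer cells of a type and less RNA per cell cannot be told apart.

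**Figure D2:**
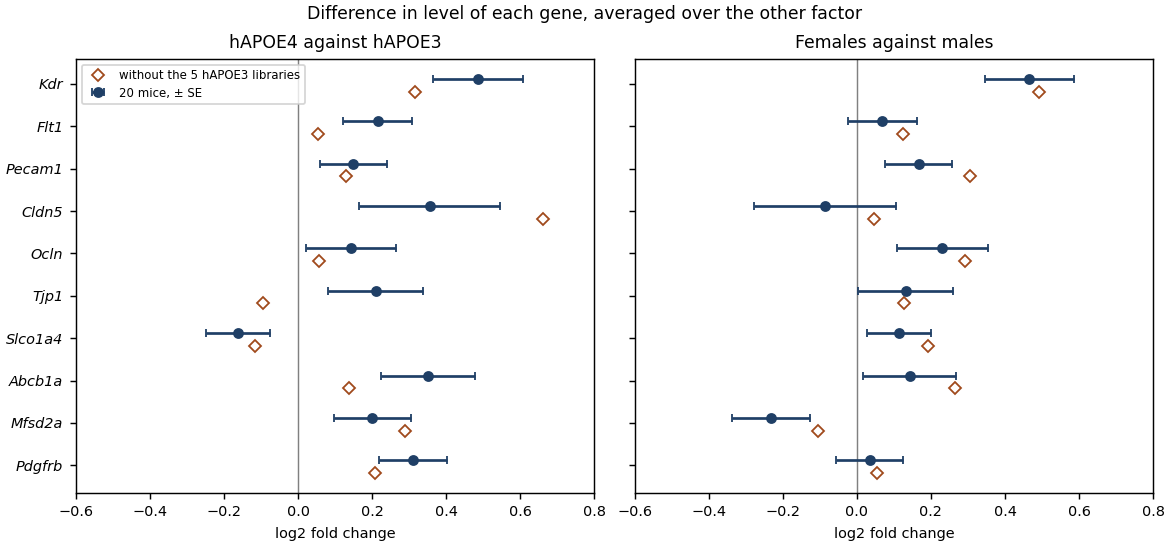
Log2 fold change of each gene for hAPOE4 against hAPOE3 averaged over sexes (left) and for females against males averaged over genotypes (right), with bars for the standard error over 20 mice. Diamonds are the same values without the 5 hAPOE3 libraries that stood apart. For genotype the diamond of Tjp1 falls at -0.09 and that of Cldn5 at 0.66.

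Within each sex no member passed the threshold for genotype by edgeR. In males 0 members had an adjusted p under 0.05 (0.621% of all genes did), 0 an unadjusted p under 0.05 (9.06%) and 0 separated the groups without overlap (1.44%). In females 0 members had an adjusted p under 0.05 (0.667%), 4 an unadjusted p under 0.05, namely Kdr, Pdgfrb, Abcb1a and Flt1 (10.1%), and 0 separated the groups (3.27%). DESeq2 called 0 members in males and 2 in females, Kdr (0.68, DESeq2 adjusted p = 0.014) and Pdgfrb (0.46, DESeq2 adjusted p = 0.047). Without the 5 libraries, Mfsd2a alone had an unadjusted p under 0.05 in males, where 6.66% of genes did, and Pdgfrb and Kdr in females, where 11.7% did.

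Kdr encodes VEGFR2, the main signalling receptor for VEGF-A on endothelial cells. Its level was 8.43, 10.8, 12.1, 13.6 and 14.3 CPM in hAPOE3 males and 11.4, 14.4, 14.5, 15 and 17.6 CPM in hAPOE4 males. In females it was 11.4, 11.9, 13.3, 16.3 and 19.1 CPM with hAPOE3 and 17.3, 20.7, 22.7, 23.6 and 30.1 CPM with hAPOE4. Of the hAPOE4 females, 4 of 5 lay above all mice of the other groups, and the fifth lay within the hAPOE3 female range. Group means ran from 11.8 ± 2.33 CPM (SD, n = 5) in hAPOE3 males through 14.4 ± 3.25 in hAPOE3 females and 14.6 ± 2.19 in hAPOE4 males to 22.9 ± 4.72 in hAPOE4 females. The highest group was 1.93 times the lowest and did not overlap it. These extremes differ in both sex and genotype and were picked by their means, and the share of all genes whose extremes separated was not computed. Neighbours in this order overlapped, as did groups that differed in sex or genotype alone.

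Kdr was higher in hAPOE4 than in hAPOE3 mice averaged over sexes, by a log2 fold change of 0.49 (SE 0.12, edgeR adjusted p = 0.0363). Within sexes the value was 0.67 in females (SE 0.17, edgeR adjusted p = 0.079) and 0.30 in males (SE 0.17, edgeR adjusted p = 0.594), and the difference between the sexes was 0.37 (SE 0.24, edgeR adjusted p = 1). The averaged value stayed positive in all 20 fits that left out 1 mouse, from 0.43 to 0.55, and 7 of these were past the threshold (edgeR adjusted p from 0.0133 to 0.0787). The call was lost in 13 fits, those without hAPOE3 male 3 or 4, hAPOE4 male 1, 2, 3 or 5, hAPOE3 female 3, 4 or 5, or hAPOE4 female 1, 2, 3 or 4, which gave 0.43 to 0.50. In females alone, the fit without hAPOE3 female 1 passed (0.79, edgeR adjusted p = 0.0252). Without the 5 hAPOE3 libraries the value was 0.32 (edgeR adjusted p = 0.258), and with their oxidative phosphorylation score as a covariate 0.40 (edgeR adjusted p = 0.0875). Kdr averaged 11.2 ± 1.88 CPM in those 5 libraries and 15 ± 2.75 CPM in the other 5 hAPOE3 libraries.

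**Figure D3:**
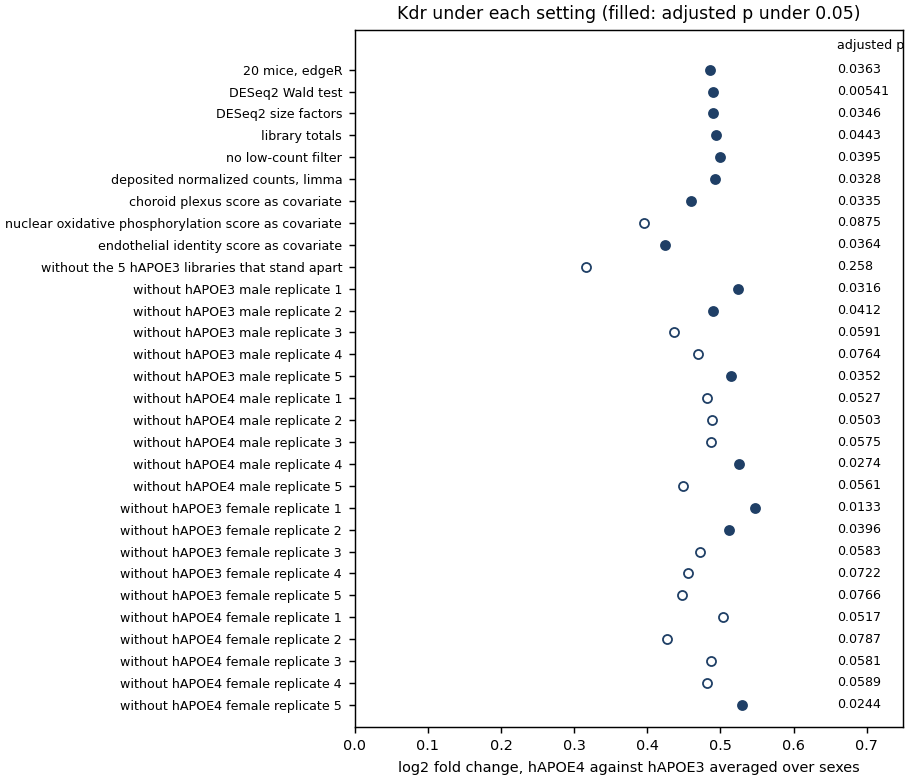
Log2 fold change of Kdr for hAPOE4 against hAPOE3 averaged over sexes under each processing setting and with each mouse left out, with the adjusted p at the right (edgeR unless another tool is named). Filled points are past the threshold. Values run from 0.32 to 0.55.

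Summed markers of choroid plexus and of meninges and fibroblasts, like Kdr, averaged highest in hAPOE4 females. Blood genes averaged lowest there, at 21.1 CPM, and oocyte genes averaged highest in hAPOE4 males, at 120 CPM. Choroid plexus markers summed to 1220 and 853 CPM on average in hAPOE3 and hAPOE4 males and to 2420 and 3710 CPM in hAPOE3 and hAPOE4 females, with wide ranges in every group (from 90.8 to 3930 CPM in hAPOE3 females and from 112 to 6700 CPM in hAPOE4 females). With the choroid plexus score as a covariate the genotype value of Kdr was 0.46 (edgeR adjusted p = 0.0335). The 9 markers of meninges and fibroblasts had median sums of 88.8 and 99 CPM in hAPOE3 and hAPOE4 males and of 153 and 365 CPM in hAPOE3 and hAPOE4 females, with ranges that overlapped, and their part in the Kdr result was not tested. With the endothelial identity score as a covariate the value was 0.42 (edgeR adjusted p = 0.0364).

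Flt1 encodes VEGFR1, which binds VEGF-A tightly and acts largely as a decoy that limits VEGFR2 signalling. Its level was 52.3, 63.4, 69.0, 76.7 and 78.0 CPM in hAPOE3 males and 69.7, 70.1, 70.3, 80.8 and 86.0 CPM in hAPOE4 males. Females had 51.4, 54.2, 69.9, 80.3 and 84.7 CPM with hAPOE3 and 73.3, 81.5, 82.1, 83.2 and 93.1 CPM with hAPOE4. The groups overlapped, and the 4 lowest hAPOE3 mice were among the 5 libraries that stood apart. For genotype averaged over sexes the difference was 0.22 (SE 0.09, edgeR adjusted p = 0.229), and 0.05 without those libraries.

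The balance of the VEGF receptor transcripts was compared within each mouse, where normalization between libraries plays no part. The log2 ratio of Flt1 to Kdr was 2.53 ± 0.16 and 2.38 ± 0.167 in hAPOE3 and hAPOE4 males and 2.24 ± 0.267 and 1.87 ± 0.254 in hAPOE3 and hAPOE4 females (SD, n = 5). In hAPOE4 mice all 5 females lay below all 5 males, with a log2 difference of -0.50, in a two-sided exact permutation test with p = 0.00794, the smallest p that 5 against 5 mice allow, and 0.0952 after adjustment over 12 ratio tests. The difference between genotypes in females was -0.37 (exact permutation p = 0.0635, adjusted 0.238). Ratios of Pdgfrb to Pecam1 and of Cldn5 to Pecam1 had adjusted exact permutation p values of 0.238 or more in all 4 comparisons, and 0 of the 12 tests passed 0.05. With 5 against 5 mice, 1 fully separated ratio among 12 tests can reach no lower than 0.0952 after adjustment, so this count says little.

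Pecam1 encodes the adhesion molecule CD31 at endothelial cell contacts. Its level had a narrow range, from 17.0 to 28.2 CPM over all mice, with group means of 19.3 ± 1.34 and 21.2 ± 3.41 CPM in hAPOE3 and hAPOE4 males and 21.5 ± 3.36 and 24.0 ± 3.74 CPM in hAPOE3 and hAPOE4 females (SD, n = 5). The genotype difference averaged over sexes was 0.15 (SE 0.09, edgeR adjusted p = 0.4) and the sex difference 0.17 (SE 0.09, edgeR adjusted p = 0.556). All groups overlapped.

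Among the tight junction genes, Cldn5 encodes claudin-5, the main sealing claudin of brain endothelium. Its level was 15.4, 18.5, 23.2, 25.1 and 32.0 CPM in hAPOE3 males and 15.5, 22, 23.6, 27.0 and 48.5 CPM in hAPOE4 males. Females had 13.6, 17.8, 19.4, 21.2 and 28.5 CPM with hAPOE3 and 16.2, 23.5, 29.5, 32.1 and 36.5 CPM with hAPOE4. The groups overlapped over most of their range, and hAPOE4 male 5 was the highest mouse. The genotype difference averaged over sexes was 0.36 (SE 0.19, edgeR adjusted p = 0.337), and 0.20 without hAPOE4 male 5. The 5 hAPOE3 libraries that stood apart averaged 25.6 ± 4.85 CPM against 17.3 ± 2.89 CPM in the other 5, and without them the value was 0.66 (edgeR adjusted p = 0.197).

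Ocln encodes occludin, a transmembrane protein of the tight junction strand. Its level ran from 9.53 to 20.7 CPM, with group means of 12.4 ± 1.31 and 13.5 ± 2.53 CPM in hAPOE3 and hAPOE4 males and 14.3 ± 3.19 and 16.0 ± 3.88 CPM in hAPOE3 and hAPOE4 females (SD, n = 5). The highest hAPOE4 females, at 18.8 and 20.7 CPM, lay beside an hAPOE3 female at 19.5 CPM. For genotype averaged over sexes the difference was 0.14 (SE 0.12, edgeR adjusted p = 0.565). It was 0.06 (edgeR adjusted p = 0.892) without the 5 hAPOE3 libraries, which averaged 12.2 CPM against 14.5 CPM in the other 5, and 0.09 without hAPOE4 female 3.

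Tjp1 encodes ZO-1, the scaffold that ties claudins and occludin to actin, and is also expressed by cells outside vessels. Its level was 78.9, 83.4, 84.8, 121 and 125 CPM in hAPOE3 males and 92.6, 113, 126, 129 and 129 CPM in hAPOE4 males. In females it was 75, 76.3, 133, 134 and 140 CPM with hAPOE3 and 100, 118, 131, 132 and 143 CPM with hAPOE4. The hAPOE3 values fell into low and high sets that did not overlap. The low set was the 5 libraries that stood apart, with a mean of 79.7 ± 4.31 CPM against 131 ± 7.77 CPM. How large a share of all genes separated these 5 libraries in this way was not computed. The genotype difference averaged over sexes was 0.21 (SE 0.13, edgeR adjusted p = 0.403) with all mice and -0.09 (edgeR adjusted p = 0.637) without those libraries.

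Among the transporter genes, Slco1a4 encodes Oatp1a4, an organic anion transporter of brain endothelium. Its level was 46.3, 51.2, 54.5, 65.1 and 68.8 CPM in hAPOE3 males and 47.6, 48.0, 49.1, 54.3 and 60.4 CPM in hAPOE4 males. Females had 57.1, 57.7, 62.2, 66.3 and 71.0 CPM with hAPOE3 and 41.2, 52.9, 57.4, 57.8 and 67.2 CPM with hAPOE4. The groups overlapped in both sexes. For genotype averaged over sexes the difference was -0.16 (SE 0.09, edgeR adjusted p = 0.335) from the counts and 0.08 (limma adjusted p = 0.719) from the authors' normalized counts, so its sign depended on the table.

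Abcb1a encodes P-glycoprotein, the efflux pump that keeps many drugs out of the brain. Its level was 29.2, 32.6, 32.7, 33.7 and 37.3 CPM in hAPOE3 males and 34.9, 37.3, 40.4, 41.6 and 43.3 CPM in hAPOE4 males. In females it was 21.2, 21.9, 41.2, 41.8 and 44.7 CPM with hAPOE3 and 33.2, 45.7, 49.7, 51.3 and 52.8 CPM with hAPOE4. All 5 libraries that stood apart lay at 21.2 to 32.7 CPM, below the other hAPOE3 libraries at 33.7 to 44.7 CPM. The share of all genes that separated these sets was not computed. The genotype difference averaged over sexes was 0.35 (SE 0.13, edgeR adjusted p = 0.145), and 0.14 (edgeR adjusted p = 0.507) without the 5 libraries that stood apart.

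The deposited normalized counts divide each count by a factor that also differs between genes within a mouse, as a correction for the length of the transcripts in use would. Relative to the median gene of the mouse and to the gene's own mean, this factor was close to 1 for Cldn5, Pdgfrb and Kdr. For Slco1a4 it ran from 1.17 to 1.31 in the 5 libraries that stood apart and from 0.815 to 1.13 in the other 15. For Abcb1a it ran from 0.72 to 0.933 and from 0.966 to 1.11, so that the sets did not overlap for either gene, and in opposite directions. For Tjp1 the ranges, 0.872 to 0.948 and 0.916 to 1.22, overlapped. Among 14231 genes with at least 50 counts, 19% differed between these sets by over 10%.

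**Figure D4:**
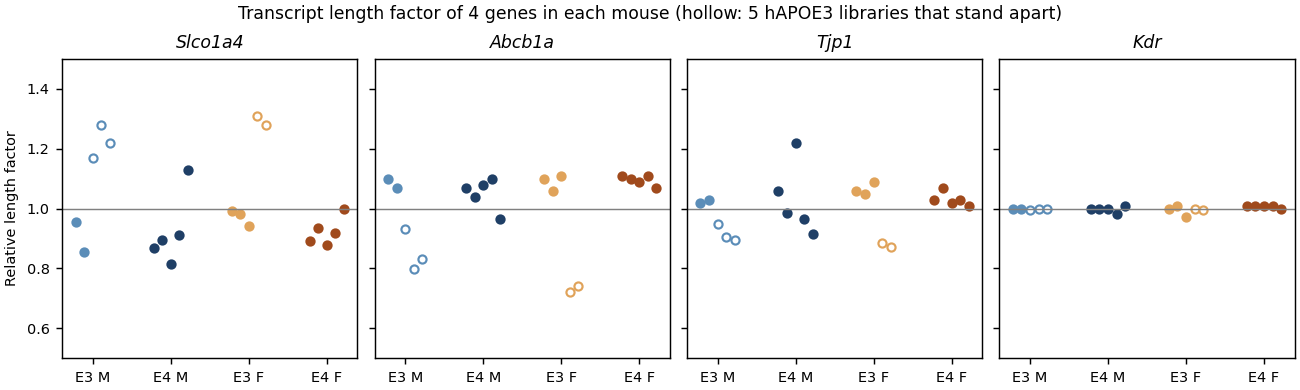
Relative length factor of Slco1a4, Abcb1a, Tjp1 and Kdr in each mouse (1 is the gene's mean), with hollow points for the 5 hAPOE3 libraries that stood apart. Hollow points lie at 1.17 to 1.31 for Slco1a4 and at 0.72 to 0.933 for Abcb1a, and Kdr stays near 1.

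Mfsd2a encodes the lysolipid transporter that carries docosahexaenoic acid into the brain and restrains transcytosis. Its level was 14.5, 19.3, 22.3, 23.0 and 29.1 CPM in hAPOE3 males and 21.4, 23.2, 23.7, 29.3 and 29.4 CPM in hAPOE4 males. Females had 16.5, 17.1, 19.6, 20.3 and 20.6 CPM with hAPOE3 and 17.7, 18.1, 22.2, 23.9 and 24.0 CPM with hAPOE4. All hAPOE4 males lay above all hAPOE3 females, the highest and the lowest group by mean. These groups differ in both sex and genotype and were picked by their means, and the share of all genes separated in this way was not computed. Groups that differed in sex or genotype alone overlapped. For genotype averaged over sexes the difference was 0.20 (SE 0.11, edgeR adjusted p = 0.324).

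Pdgfrb (ENSMUSG00000024620, on chromosome 18) encodes the PDGF receptor of pericytes, which these cells need for recruitment to vessels. Its level was 18.1, 20.2, 22.7, 23.3 and 23.4 CPM in hAPOE3 males and 21.6, 22, 22.4, 23.3 and 31.7 CPM in hAPOE4 males. In females it was 16.4, 19.2, 20.8, 21.7 and 21.9 CPM with hAPOE3 and 20.7, 24.4, 29.0, 30.2 and 32.5 CPM with hAPOE4. Of the hAPOE4 females, 4 of 5 lay above all hAPOE3 females, and the fifth lay within their range. The genotype difference was 0.31 averaged over sexes (SE 0.09, edgeR adjusted p = 0.075), 0.45 in females (SE 0.13, edgeR adjusted p = 0.136) and 0.17 in males (SE 0.13, edgeR adjusted p = 0.677). The value in males was 0.05 without hAPOE4 male 5, the mouse at 31.7 CPM. With DESeq2 the averaged difference was past the threshold (0.31, DESeq2 adjusted p = 0.0303), as it was with edgeR without hAPOE4 female 5 (0.35, edgeR adjusted p = 0.0393), and without the 5 hAPOE3 libraries it was 0.21 (edgeR adjusted p = 0.372).

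No member passed the threshold for sex by edgeR. In hAPOE3 mice 0 members had an adjusted p under 0.05 by edgeR (0.0414% of all genes did), 0 an unadjusted p under 0.05 (5.22%), and 0 separated females from males (0.723%). In hAPOE4 mice 0 had an adjusted p under 0.05 (0.437%), 1 an unadjusted p under 0.05, Kdr at a log2 fold change of 0.65 (5.8%), and 0 separated the sexes (0.723%). Averaged over genotypes 0 passed after adjustment (0.129%), and Kdr at 0.47 and Mfsd2a at -0.23 had an unadjusted p under 0.05 (10%). The adjusted p of the averaged sex difference by edgeR was 0.164 for Kdr and 0.467 for Mfsd2a, and DESeq2 called Kdr (0.47, DESeq2 adjusted p = 0.0277). Without the 5 hAPOE3 libraries the averaged sex values with an unadjusted p under 0.05 were those of Kdr (0.49), Pecam1 (0.31) and Abcb1a (0.26), where 6.16% of all genes had one, Mfsd2a was at -0.10, and 0 members passed after adjustment by edgeR. DESeq2 also called Kdr in hAPOE4 mice (0.66, DESeq2 adjusted p = 0.0291) and 0 members in hAPOE3 mice. With the choroid plexus score as a covariate the Kdr value in hAPOE4 mice was 0.53 (edgeR adjusted p = 0.302), beside 0.65 without it.

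For the interaction, the genotype difference in females minus that in males, 0 members passed by edgeR after adjustment (0.184%) or before it (2.54%), and 0 by DESeq2. Values ran from -0.10 for Tjp1 to 0.37 for Kdr, with 7 of 10 positive and standard errors of 0.17 to 0.38. Without the 5 hAPOE3 libraries 3 of 10 were positive.

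The wider vasculature was described with 10 lists of related genes, of which all genes but the adhesion genes Sele and Selp passed the filter. Averaged over sexes, 116 had a positive and 30 a negative genotype difference, so that 79.5% were positive beside 50.3% of all genes. An unadjusted p under 0.05 was found for 32 (24 higher and 8 lower in hAPOE4), 21.9% of these genes beside 17.9% of all genes. After adjustment by edgeR 1 passed, where 2.45% of all genes did. Without the 5 hAPOE3 libraries 76% were positive, beside 52.9% of all genes, and 7.53% (8 higher and 3 lower) had an unadjusted p under 0.05, a share below the 15.9% of all genes. In that fit 1 gene passed, a different one, where 0.744% of all genes did. Some genes stand in more than 1 list. The gene past the threshold with all mice was Hspg2, which encodes perlecan, a heparan sulfate proteoglycan of the vascular basement membrane.

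Hspg2 (ENSMUSG00000028763, chr4:137468769-137570630) averaged 16 ± 3.24 and 20.8 ± 2.52 CPM in hAPOE3 and hAPOE4 males and 17.4 ± 4.28 and 28.9 ± 8.28 CPM in hAPOE3 and hAPOE4 females (SD, n = 5). The hAPOE4 females ranged from 15.1 to 36.5 CPM and the hAPOE3 females from 13.3 to 23.7 CPM, so the groups overlapped. Its genotype difference averaged over sexes was 0.56 (SE 0.14, edgeR adjusted p = 0.0415), and 0.40 (edgeR adjusted p = 0.257) without the 5 libraries. Its call was also lost without hAPOE3 male 1, 3 or 4, hAPOE4 male 3, 4 or 5, hAPOE3 female 3, 4 or 5, or hAPOE4 female 1, 2 or 4. The gene past the threshold without those 5 libraries was Cav2, a caveolin of endothelial vesicles, at -0.52 (edgeR adjusted p = 0.0406), against -0.28 (edgeR adjusted p = 0.245) with all mice.

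By list, positive genotype differences averaged over sexes were found for 12 of 15 junction genes (median 0.17), 17 of 20 barrier transporter genes (median 0.11) and 16 of 19 genes of VEGF and angiopoietin signalling (median 0.13). Of 19 genes of the Wnt signalling that induces the barrier, 17 were positive (median 0.13), and of 24 endothelial identity genes 17 were (median 0.09). In the endothelial identity list 4 genes had an unadjusted p under 0.05 by edgeR, where 17.9% of all genes had one. All 4 were lower in hAPOE4 mice. Among the supporting layers the count was 10 of 16 pericyte genes (median 0.04), 9 of 9 vascular smooth muscle genes (median 0.42) and 9 of 11 basement membrane genes (median 0.18). It was 6 of 9 for transcytosis and leukocyte adhesion (median 0.13) and 7 of 9 for the cyclophilin A and MMP9 axis (median 0.23), a pathway linked to pericytes and APOE4. In males 11 of 24 endothelial identity genes (median -0.03), 6 of 16 pericyte genes (median -0.06) and 8 of 15 junction genes (median 0.07) were positive. In females 19, 13 and 12 of them were (medians 0.18, 0.14 and 0.20). Positive in males and in females were 14 and 16 of 20 transporter, 12 and 16 of 19 VEGF and angiopoietin and 14 and 17 of 19 Wnt genes. Counts were 8 and 9 of 9 for smooth muscle and 6 and 7 of 9 for transcytosis and adhesion. They were 8 and 8 of 11 for basement membrane and 7 and 7 of 9 for the cyclophilin A and MMP9 axis. The difference between the sexes was not tested for any list. The summed markers of meninges and fibroblasts given above averaged higher in hAPOE4 than in hAPOE3 mice of both sexes, and their part in these counts was not tested. None of the lists was tested as a set.

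The gene with the smallest p of each list, apart from Hspg2, missed the threshold by edgeR. For genotype averaged over sexes these were the Wnt target Apcdd1 (0.32, edgeR adjusted p = 0.0569), the pericyte proteoglycan gene Cspg4 (0.33, edgeR adjusted p = 0.0732), the amino acid transporter gene Slc7a5 (0.18, edgeR adjusted p = 0.162) and the VEGF co-receptor gene Nrp2 (0.34, edgeR adjusted p = 0.162). The lipoprotein receptor gene Lrp1 (0.37), the p120 catenin gene Ctnnd1 (0.21), the desmin gene Des (0.42), Cd34 (-0.32) and Cav2 (-0.28) had edgeR adjusted p values between 0.165 and 0.391. For sex averaged over genotypes, the genes with the smallest p had positive values (females over males) for Cgnl1 (0.62), Slco1c1 (0.34), Vcam1 (0.54), Mylk (0.21), Nid2 (0.78), Mmp2 (0.51) and Esm1, and negative ones for Slc9a3r2 (-0.35), Sox17 (-0.31) and Ndufa4l2 (-0.38), with edgeR adjusted p values from 0.171 to 0.613. The largest of these differences was that of Esm1, an endothelial proteoglycan gene induced by VEGF, at 0.94, with 0.976 ± 0.399 CPM in hAPOE4 females and 0.327 ± 0.099 CPM in hAPOE4 males (SD, n = 5). In hAPOE3 mice Esm1 averaged 0.508 ± 0.384 CPM in females and 0.405 ± 0.168 CPM in males, and its sex difference was 0.31 in hAPOE3 and 1.57 in hAPOE4 mice (edgeR adjusted p of the interaction 1).

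How the members varied together between mice was computed after group means were removed. Because 5 libraries stood apart, values are given for the other 15 mice, a choice made after the data were seen. Of the hAPOE3 mice this left males 1 and 2 and females 1, 2 and 3. Of 45 pairs, 33 had a positive r and 12 a negative one, with a median of 0.279. Such counts were not computed for pairs of other genes, so those given here, also over 20 mice, have no background. The pair past the threshold was Slco1a4 and Pdgfrb, with r = 0.891 and rho = 0.896 (permutation p = 6e-05 for both, adjusted over 45 pairs 0.0027), and r = 0.795 without the 2 mice farthest from the median of Slco1a4. Over all 20 mice r of this pair was 0.67, with 0.93 within hAPOE4 mice and 0.273 within hAPOE3 mice, which include the 5 libraries that stood apart, and the difference between genotypes was not tested. The most negative r was that of Mfsd2a and Kdr, at -0.626 (rho = -0.611, permutation p = 0.0187, adjusted 0.206). Cldn5 and Kdr had r = 0.647 (rho = 0.686, permutation p = 0.0228, adjusted 0.206). With all 20 mice 32 pairs were positive and 8 had an adjusted permutation p under 0.05. The smallest was that of Flt1 and Pdgfrb (r = 0.732, adjusted permutation p = 0.00045). Over the 15 mice that pair had r = 0.672 (adjusted permutation p = 0.144).

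**Figure D5:**
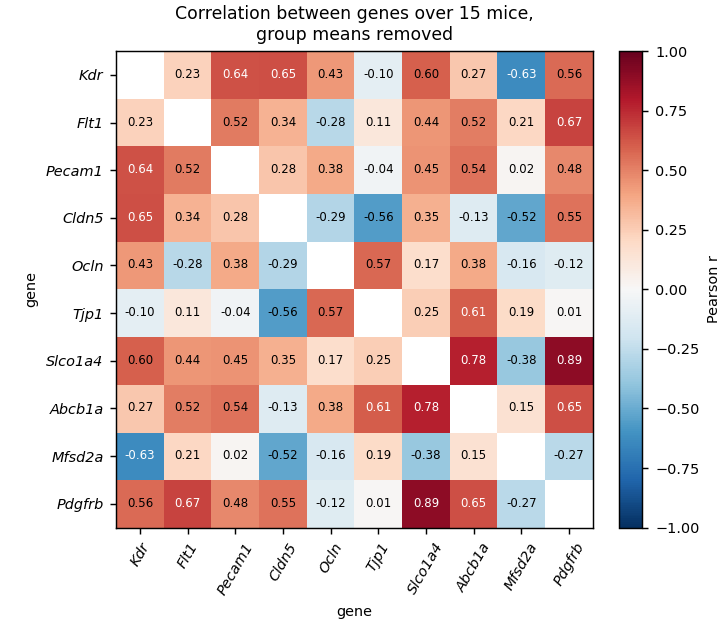
Pearson r between each pair of genes over the 15 mice outside the set that stood apart, from log2 CPM with group means removed, with red for positive and blue for negative values. Slco1a4 and Pdgfrb reach 0.89, and Mfsd2a and Kdr -0.63.

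The genes of the whole table whose levels followed each member most closely were found in the same way among 16095 genes over all 20 mice. They are a description, and each r is given with its value over the 15 mice. For Kdr they were Zfp217 (r = 0.897, and 0.88 over 15 mice), the endothelial receptor gene Cd93 (0.876 and 0.864) and Ifnar1 (0.854 and 0.829). For Flt1 they were Chst3 (0.912 and 0.881), Epas1 (0.863 and 0.737) and Epb41l2 (0.862 and 0.638). For Pecam1 they were Msrb3 (0.828 and 0.85), Cavin2 (0.828 and 0.765) and Col3a1 (0.826 and 0.83). Those of Pdgfrb were Cyyr1 (0.808 and 0.77), Slc38a11 (0.799 and 0.901) and the cadherin gene Cdh5 (0.796 and 0.709).

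The tight junction genes each had other nearest genes. Those of Cldn5 were Rhpn1 (0.916 and 0.909), the Notch target Hes5 (0.903 and 0.927) and the Notch ligand Dll4 (0.891 and 0.877), those of Ocln were Tmed10 (0.908 and 0.909), Strip2 (0.887 and 0.929) and Lamp2 (0.876 and 0.877), and those of Tjp1 were Lrp4 (0.973 and 0.919), Kat6a (0.972 and 0.879) and Dag1 (0.963 and 0.896). Among the transporters, Slco1a4 was closest to Bnip2 (0.832 and 0.827), Tbx18 (0.822 and 0.866) and Casp8 (0.822 and 0.752). Abcb1a was closest to Abca9 (0.921 and 0.814), Fyb (0.907 and 0.854) and Dock2 (0.901 and 0.625), and Mfsd2a to Htra1 (0.843 and 0.845), E230001N04Rik (0.824 and 0.827) and Tsc22d3 (0.807 and 0.826).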

How the data were processed

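Hippocampal polyA RNA of 20 mice was sequenced by the study. The deposited estimated counts per gene were made by the authors with Salmon (version 0.91, per the submitters' processing notes) and summed to genes. A second deposited table holds normalized counts (here called a signal), which the authors calculated with DESeq2. Their ratio to the counts differs between genes within a mouse, and the factors behind it were not given in the sources used here. The strand setting of the counting was not given in the sources used here, and 0 columns of other samples were left out. The estimated counts, deposited as whole numbers, were filtered with filterByExpr by group, TMM normalized and fitted over all 20 mice with 1 mean per group by the quasi-likelihood test of edgeR 4.0.16 (R 4.3.3), with Benjamini-Hochberg adjustment over all genes tested and a threshold of 0.05. Log2 fold changes and standard errors come from that fit, and CPM values from the TMM library sizes.

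Groups followed the genotype and sex labels, and replicate numbers only name the mice. P-values measure the spread between mice. Libraries held 35778879 to 52520279 counts, and no pair of libraries agreed within sampling noise (chi-square per degree of freedom at least 9.98 over 190 pairs). Comparisons were genotype within each sex, sex within each genotype, both averages and their interaction. Within-mouse ratios were tested by exact permutation and correlations by permutation within groups with 100000 resamples (Python 3.11.15, scipy 1.17.1). DESeq2 1.42.0, other normalizations, no filter, limma 3.58.1 on the normalized counts (log2 of the value plus 1), covariates, only the groups compared, and leaving out each mouse were tried as alternatives, and leaving out the 5 hAPOE3 libraries was chosen after seeing the data. Scripts were tested on simulated data. The text names all 10 genes, the genes of each vascular list past the threshold and with the smallest p in the averaged comparisons, and the 3 genes most correlated with each member over 20 mice (log2 CPM with prior count 2, group means removed, mean log2 CPM above 0). The members and lists were chosen with earlier results of these data known. Sequences came from RefSeq and gene positions from the GENCODE annotation.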

Additional observations from a re-analysis of the deposited data

Results flagged for a closer look

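Pdgfrb in hAPOE4 male 5 lay far above the other mice of its group, at 31.7 CPM against 23.3 CPM in the next highest. The gap was 0.832 of the range of the group, above the critical value of 0.71 of Dixon's test for 5 samples. It was the 1 such value in 40 groups of 5 mice tested (10 genes in 4 groups), where chance gives about 1 in 20.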

How the results depend on the processing

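No paired analysis was possible because the labels give no replicate numbers that the groups share. Of 670 member fold changes under settings other than leaving out a mouse, 624 kept their direction and side of the threshold, 2 fell below it, 6 rose past it and 38 changed sign, and the causes were not tested. With DESeq2, members past the threshold were 2 for genotype in females and averaged over sexes and 1 for sex in hAPOE4 mice and averaged, and other vascular genes were 1 for genotype in males (Abcb1b) and in females (Hspg2), 1 for sex in hAPOE4 mice (Esm1) and 3 for genotype averaged over sexes (Apcdd1, Cspg4, Hspg2). With the deposited normalized counts (limma) 1 vascular gene passed in males, Slco1a4 had genotype values of 0.109 in males, 0.0518 in females and 0.0804 averaged, Flt1 and Abcb1a had sex values of -0.0161 and -0.0144 in hAPOE3 mice, the interaction was -0.0516 for Pecam1 and -0.103 for Ocln, and the log2 ratio of Pdgfrb to Pecam1 differed by 0.022 between the sexes in hAPOE4 mice. With library totals the sex value of Flt1 in hAPOE3 mice was -0.00802.

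With the oxidative phosphorylation score as covariate, Tjp1 had -0.00701 for genotype in males and 0.139 for the interaction, 1 member passed in females (Kdr), and averaged over sexes 0 members and 0 vascular genes did. Sex values in hAPOE3 mice were then -0.132 for Flt1, -0.202 for Abcb1a and -0.0645 for Tjp1, and averaged 0.00542 for Cldn5, -0.00335 for Flt1 and -0.00578 for Pdgfrb. Without the 5 hAPOE3 libraries, Tjp1 had genotype values of -0.0674 in males, -0.12 in females and -0.0936 averaged, 0 members passed, sex values were 0.0583 for Cldn5 and 0.0348 for Mfsd2a in hAPOE3 mice and 0.0466 for Cldn5 averaged, interactions were -0.0234 for Cldn5, -0.21 for Pecam1, -0.0151 for Abcb1a and -0.0514 for Ocln, and the ratio of Pdgfrb to Pecam1 differed by -0.169 between genotypes in males. With the choroid plexus score as covariate, sex values were -0.00376 for Flt1 in hAPOE3 mice, -0.11 for Cldn5 and -0.0201 for Slco1a4 in hAPOE4 mice and -0.00549 for Pdgfrb averaged, the interaction of Pecam1 was -0.00348, and 2 vascular genes passed for genotype (Cspg4, Hspg2). With the endothelial identity score, sex values in hAPOE4 mice were -0.0674 for Cldn5 and -0.0302 for Slco1a4, and interactions were -0.0152 for Cldn5, -0.0277 for Flt1, -0.168 for Pecam1, -0.0261 for Abcb1a and -0.0687 for Ocln.

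Leaving out 1 mouse gave 0 to 1 members past the threshold for genotype in females (0 with all mice) and 0 to 2 averaged over sexes (1 with all mice). For vascular genes it gave 0 to 2 in females (0 with all mice) and 0 to 2 averaged (1 with all mice). For sex in hAPOE4 mice it gave 0 to 1 vascular genes (0 with all mice). Each averaged genotype count changed in 14 of 20 fits. Ranges that crossed 0 were -0.0522 to 0.41 for Cldn5 by genotype in males. By sex in hAPOE3 mice they were -0.0882 to 0.0893 for Flt1 and -0.0706 to 0.176 for Abcb1a, in hAPOE4 mice -0.136 to 0.322 for Cldn5, and averaged -0.166 to 0.0678 for Cldn5 and -0.000686 to 0.0911 for Pdgfrb. For the interaction they were -0.186 to 0.0575 for Mfsd2a, -0.0728 to 0.173 for Ocln, -0.122 to 0.0462 for Slco1a4 and -0.048 to 0.103 for Pecam1. Ratios to Pecam1 ranged in males by genotype from -0.0934 to 0.205 for Cldn5 and from -0.0317 to 0.105 for Pdgfrb, and by sex in hAPOE4 mice from -0.247 to 0.123 for Cldn5 and from -0.0971 to 0.0916 for Pdgfrb. Genes past the threshold over the whole table, with 1 mouse left out and then under other settings, numbered 99 to 288 and 31 to 232 for genotype in males (135 as reported), 74 to 257 and 56 to 345 in females, and 283 to 792 and 170 to 1086 averaged (532). For sex they numbered 9 to 15 and 8 to 23 in hAPOE3 mice (9), 70 to 275 and 32 to 189 in hAPOE4 mice (95), from 14 up to 5.93 times the reported 28 (without hAPOE4 male 1) and 9 to 161 averaged, and for the interaction 30 to 118 and 0 to 65 (40). Members had at least 351 counts in each mouse, so depth limited these values less than the spread between mice. A fit of only the groups compared gives no value for the averages and the interaction.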
